A study of Rattus norvegicus with 20 samples.

Results

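MiR-204, its relative miR-211, and the miR-200 family were followed across 20 small RNA libraries of the rat adBNST, the anterodorsal part of the bed nucleus of the stria terminalis, which is a limbic forebrain region concerned with anxiety. The members were chosen by name and comprised rno-miR-204-5p, rno-miR-204-3p, rno-miR-211-5p, rno-miR-200a-3p, rno-miR-200b-3p, rno-miR-200c-3p, rno-miR-141-3p, and rno-miR-429, which are 8 of the 617 miRNAs with reads. The prefix rno, for the rat, is left out below. All 8 had reads in at least 1 library, and 5 of them (both arms of miR-204, miR-211-5p, miR-200b-3p, and miR-200c-3p) had at least 10 counts in at least 5 libraries and were among the 500 miRNAs tested. The rats were Sprague-Dawley, with 5 group-housed (GH) males, 5 socially isolated (SI) males, 5 GH females, and 5 SI females. SI rats lived alone from weaning on postnatal day 21 and GH rats shared a cage with same-sex littermates, both for 6 weeks, and all were tested in an elevated plus maze at 9 weeks of age before the nucleus was punched from the frozen brain. Each library came from 1 rat, which is named here by its label (G for GH, I for SI, a number, and M or F). The punches were whole tissue, so a higher level could come from more cells of a type or from more RNA per cell, which cannot be told apart here.

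MiR-204 and miR-211 are close relatives that share a seed, the stretch near the 5′ end that pairs with target mRNAs. MiR-204 is encoded in an intron of Trpm3, a cation channel gene, and is known for its very high level in the choroid plexus, the secretory epithelium of the brain ventricles, and in the retinal pigment epithelium. MiR-211 is encoded in Trpm1 and is known from pigment cells. The miR-200 family is made from a pair of gene clusters, is abundant in epithelia, and is best known for repressing the Zeb transcription factors and so maintaining the epithelial state. Neurons and glia express this family at a low level.

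The mature sequences show how closely the members resemble each other, which matters for telling their reads apart. They are RefSeq sequences of the GRCr8 assembly, read 5′ to 3′, with the seed (bases 2 to 8) in capitals, and 5 of the 8 members were matched, the others being miR-200a-3p, miR-200b-3p, and miR-429.
miR-204-5p: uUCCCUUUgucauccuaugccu
miR-211-5p: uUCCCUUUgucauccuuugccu
miR-204-3p: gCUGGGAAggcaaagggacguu
miR-200c-3p: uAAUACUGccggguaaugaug
miR-141-3p: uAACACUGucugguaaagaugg
MiR-204-5p and miR-211-5p had the same length of 22 bases and the same seed, and they differed by A17U alone, with positions counted from 1 at the 5′ end and the base of miR-204-5p given first. MiR-200c-3p and miR-141-3p differed at 4 of the positions they share (U4C, C9U, G11U, and U17A), and the first of these lies in the seed. Mir204 lies within Trpm3 (mature 5p arm at chr1:229743493-229743514, plus strand) and Mir211 within Trpm1 (mature 5p arm at chr1:127189353-127189374, plus strand). Mir200c and Mir141 are neighbours on the minus strand of chromosome 4, with mature arms at chr4:159209969-159209989 and chr4:159209540-159209561, whereas Mir200a, Mir200b, and Mir429 lie together on chromosome 5 and overlap Ttll10, a protein-coding gene.

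Libraries held between 3428930 and 11383055 miRNA counts, with a median of 6705043. Levels are given below as normalized counts, that is, counts scaled to the mean effective library size of 6395173. A level of 0 means that no sequence of the miRNA was read at least 2 times, since the files list no sequence read once. Differences between groups were tested with edgeR's quasi-likelihood test over the 500 miRNAs, and a miRNA was called at a Benjamini-Hochberg adjusted p under 0.05. Nothing states that the rats of a group came from different litters, so the p-values measure the spread between these rats. The library of SI female I16F stood apart, being the highest of the 20 for 84 of the 500 miRNAs, followed by GH females G16F (53) and G17F (45) and SI male I20M (39). The SI rats I17M and I17F were placed by their sample labels, although the names of their files state the other sex for each.

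MiR-204-5p was by far the most abundant member and its level was dominated by 1 SI male. It had 314967 reads in all, of which 37.85% came from rat I20M. In the GH males its level was 8065 in G16M, 15598 in G19M, 5907 in G18M, 5355 in G20M, and 6276 in G21M. In the SI males it was 8208 in I15M, 7446 in I19M, 6777 in I22M, 9624 in I17M, and 116298 in I20M. By the sample labels, the other 4 SI males thus lay inside the range of the GH males. I20M stood 14.2-fold above the median of the other 19 libraries (8208). The next highest library of all, GH female G17F, was 3.48-fold lower than I20M. As a share of all miRNA counts, miR-204-5p took 1.68% in I20M and 0.655% in G17F, against a median of 0.128% over the 20 libraries. By its median level it ranked 84th of the 500 miRNAs, and in I20M alone it ranked 15th.

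In females the miR-204-5p level was 13359.5 in G15F, 7763 in G12F, 9594 in G16F, 12036 in G13F, and 33389.9 in G17F among the GH rats. In the SI rats it was 6282 in I14F, 8655 in I10F, 25977 in I17F, 5316 in I12F, and 8527 in I16F. The female groups overlapped, with 1 high library in each (G17F and I17F), and 2 SI females lay below all GH females. On the log2 scale the group means were 12.89 ± 0.62 in GH males, 13.73 ± 1.74 in SI males, 13.69 ± 0.81 in GH females, and 13.16 ± 0.89 in SI females (SD, n = 5 each). The SI males had the widest spread, and their SD was 0.22 for the 4 rats other than I20M.

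MiR-204-5p was not called by edgeR between SI and GH rats in either sex. The log2 fold change of SI against GH was 1.85 ± 0.69 (SE) in males, with an adjusted p of 0.106 by edgeR, and −0.48 ± 0.67 in females, with an adjusted p of 0.727. Without rat I20M, the male value was −0.10 ± 0.44 (edgeR, adjusted p = 0.967), so the direction in males rested on this rat. Leaving out any other single library kept the male fold change between 1.73 and 2.21. The interaction of housing and sex was −2.32 ± 0.95 (unadjusted p = 0.0226, edgeR adjusted p = 0.485), and it was −0.35 without I20M. DESeq2 gave fold changes for miR-204-5p but no p-value in any contrast.

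**Figure D1:**
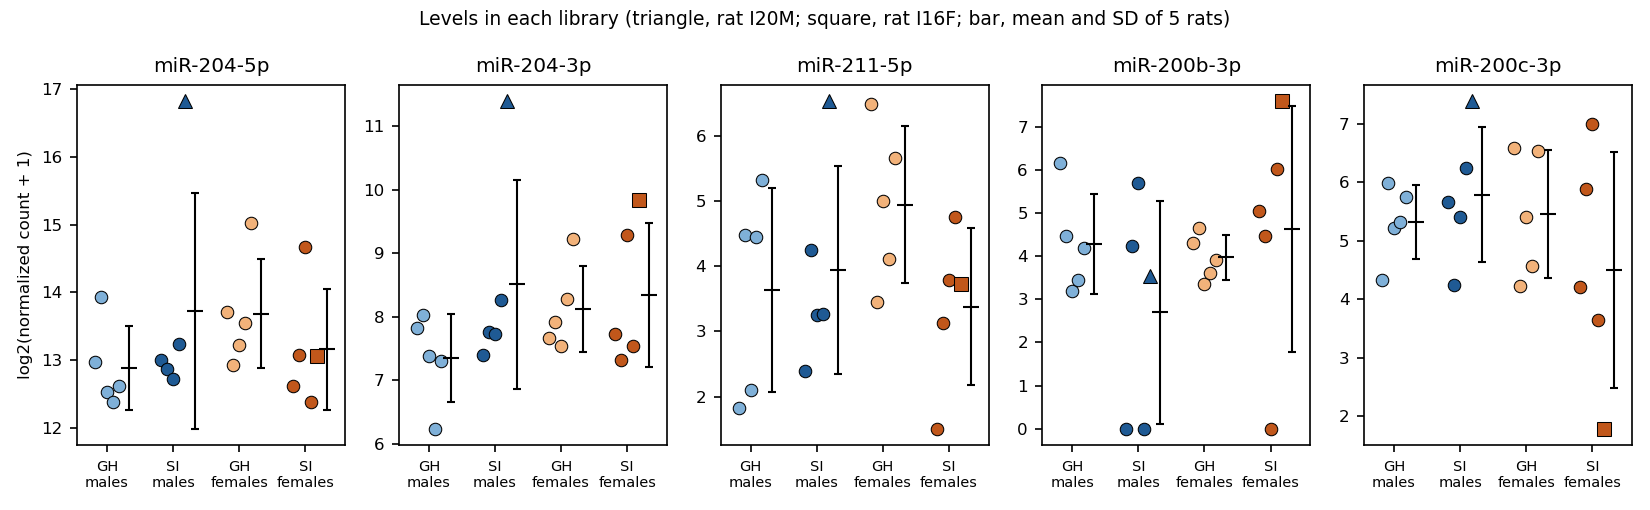
Log2(normalized count + 1) of the 5 tested members in each library, by group (GH males, SI males, GH females, SI females), with the mean and SD of 5 rats at the right of each group. Rat I20M (triangle) is the highest library for miR-204-5p (116298 normalized counts), miR-204-3p, miR-211-5p (counting reads that also match miR-204-5p), and miR-200c-3p. Rat I16F (square) is the highest for miR-200b-3p and the lowest for miR-200c-3p.

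MiR-204-3p, the less abundant arm of the same hairpin, had the same high library. The level in the GH males was 225 in G16M, 259 in G19M, 165 in G18M, 74.5 in G20M, and 157 in G21M. Among the SI males it was 167 in I15M, 216 in I19M, 210.4 in I22M, 306 in I17M, and 2695 in I20M. Both I17M and I20M lay above all GH males, and the I20M value was 12.8-fold above the median of the other 19 libraries (210.7). In females the level was 201 in G15F, 242 in G12F, 186 in G16F, 308 in G13F, and 598 in G17F among GH rats, and 210.7 in I14F, 159 in I10F, 622 in I17F, 184 in I12F, and 911 in I16F among SI rats. The SI females lay on both sides of the GH females, 2 above and 2 below all of them.

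The male fold change of miR-204-3p was 2.03 ± 0.69 on the log2 scale (edgeR, adjusted p = 0.0876). DESeq2 gave 2.11 with an adjusted p of 0.0190, and edgeR fitted to the males alone gave 2.15 with an adjusted p of 0.048, so the call in males depended on the tool and on the samples fitted. Without I20M the fold change was 0.29 ± 0.51 (edgeR, adjusted p = 0.871). Averaged over the sexes it was 1.24 ± 0.48 (edgeR, adjusted p = 0.0763), and 1.31 with DESeq2 (adjusted p = 0.0237). Without I20M the averaged value was 0.37 ± 0.35 (edgeR, adjusted p = 0.523). In females it was 0.44 ± 0.67 (edgeR, adjusted p = 0.744), and −0.02 without I16F. Leaving out I16F also brought the male value past the threshold (edgeR, adjusted p = 0.0398), and leaving out I10F the averaged one (edgeR, adjusted p = 0.0496).

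**Figure D2:**
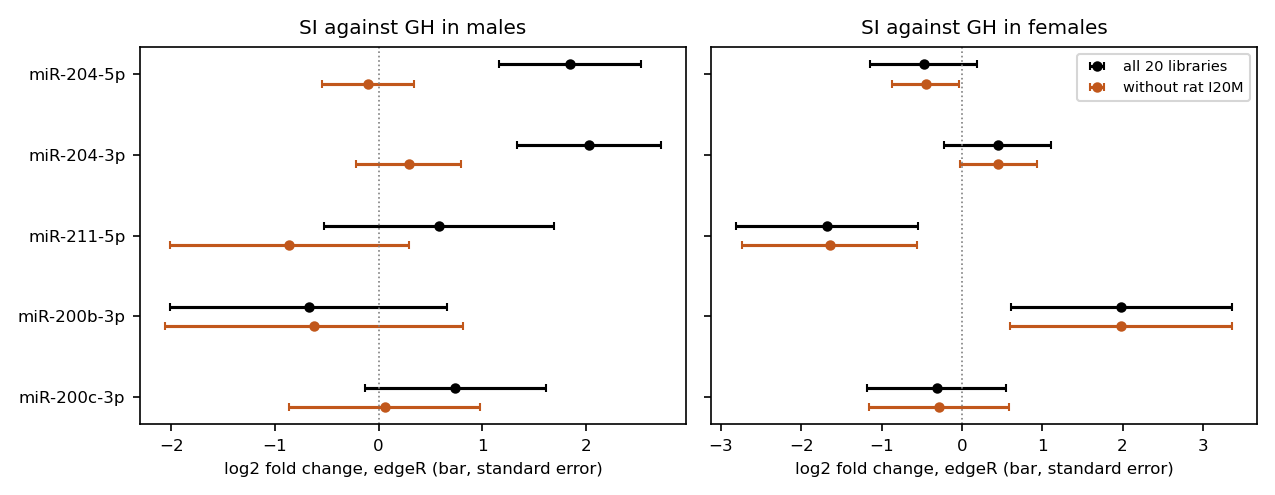
Log2 fold change of SI against GH (points) with its standard error (bars) for the 5 tested members, in males and in females, from edgeR with all 20 libraries (black) and without rat I20M (orange). Both arms of miR-204 lie near 2 in males with all libraries and near 0 without this rat. The female values hardly move, because this rat is in neither female group.

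The balance between the arms of the miR-204 hairpin did not set I20M apart. MiR-204-5p outnumbered miR-204-3p 43.1-fold in I20M, near the median of 39.5-fold over the 20 libraries. The highest ratio was 71.9 in GH male G20M, and the lowest was 9.36 in SI female I16F, for which the next lowest library had 28.8. On the log2 scale the ratio was 5.23 ± 0.28 in SI males and 5.54 ± 0.47 in GH males (SD, n = 5 each, exact permutation test, two-sided, p = 0.230). Female libraries gave 4.82 ± 0.97 in SI and 5.57 ± 0.42 in GH rats (SD, n = 5 each, exact permutation test, two-sided, p = 0.127). Both had an adjusted p of 0.508 over the 8 such tests made here, and 5 rats against 5 allow no p below 0.0079.

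The 3′ ends of miR-204-5p reads varied between libraries, with I20M inside the range of the others for each form described here. The reference sequence made up 51.5% of all miR-204-5p reads, between 47.1% and 61.4% of a library, and 50.5% in I20M. Next came reads that were 1 and 2 bases longer at the 3′ end, shown here because together with the reference form they made up most of the reads, with the added bases in capitals.
miR-204-5p with 1 added base: uucccuuugucauccuaugccuG
miR-204-5p with 2 added bases: uucccuuugucauccuaugccuGU
The first of these forms held 15.4% of all miR-204-5p reads, between 9.43% and 18.1% of a library, and 16.98% in I20M. The second, whose last base does not match the hairpin, held 19.7% of all reads, between 14.54% and 28.0% of a library, and 19.7% in I20M. A form 1 base shorter than the reference made up between 0.792% and 6.13% of a library, and 2.20% in I20M. A shifted 5′ end, which moves the seed, was found in between 0% (I16F) and 1.94% (G18M) of the miR-204-5p reads of a library, and in 1.53% in I20M. For miR-204-3p the most common form was 1 base shorter at the 3′ end than the reference and held 64.1% of reads.

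The share of miR-204-5p reads with a 3′ nucleotide that does not match the hairpin ran from 19.4% (I22M) to 31.0% (G13F). It was 22.2 ± 2.0% in SI males and 26.5 ± 3.7% in GH males (SD, n = 5 each, exact permutation test, two-sided, p = 0.071). After adjustment over the 8 tests its p was 0.508. Among females the share was 26.1 ± 4.2% in SI and 24.8 ± 4.5% in GH rats (SD, n = 5 each, exact permutation test, two-sided, p = 0.635). Neither difference passed the test. The share with a shifted 5′ end was 1.15 ± 0.49% in SI males and 1.25 ± 0.44% in GH males, and 0.998 ± 0.731% in SI females and 1.13 ± 0.24% in GH females (SD, n = 5 each, exact permutation tests, two-sided, p = 0.738 and 0.722).

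**Figure D3:**
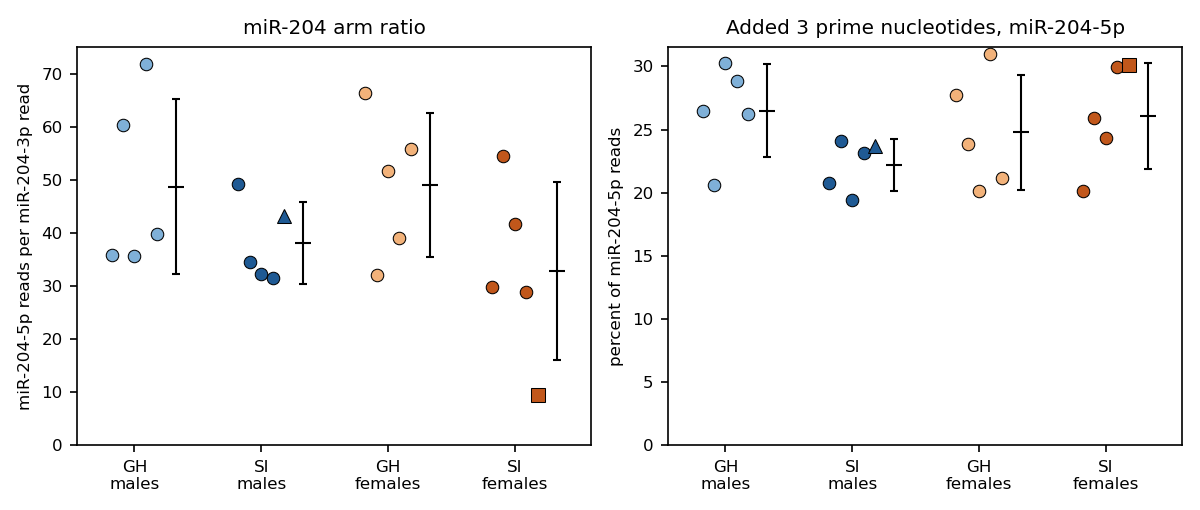
Reads of miR-204-5p per read of miR-204-3p (left) and percent of miR-204-5p reads with an added 3′ nucleotide (right) in each library, by group, with mean and SD of 5 rats. Rat I20M (triangle) lies within the other libraries in both, at 43.1 and 23.7%, and rat I16F (square) has the lowest arm ratio, 9.36.

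MiR-211-5p was rare beside its relative, with 493 reads in all and 639 miR-204-5p reads for each of them. Its level in the GH males was 2.55 in G16M, 21.3 in G19M, 3.28 in G18M, 20.7 in G20M, and 39.0 in G21M. In the SI males it was 4.26 in I15M, 17.9 in I19M, 8.53 in I22M, 8.68 in I17M, and 91.7 in I20M. With reads that also match miR-204-5p counted, I20M was again the highest library, 7.17-fold above the median of the others (12.8). GH female G15F was nearly as high at 88.9. The other GH females had 9.97 (G12F), 30.9 (G16F), 16.3 (G13F), and 49.4 (G17F), and the SI females had 1.85 (I14F), 7.71 (I10F), 12.8 (I17F), 26.0 (I12F), and 12.3 (I16F). All groups overlapped. The log2 fold change of SI against GH was 0.58 ± 1.11 in males (edgeR, adjusted p = 0.875) and −1.68 ± 1.13 in females (edgeR, adjusted p = 0.429).

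Part of the miR-211-5p reads could not be told from miR-204-5p. Of the 493 reads, 130 (26.4%) matched both miRNAs with 1 mismatch each and were counted for both. The most common of them, with 100 reads in 14 libraries, is shown with the base that differs from both references in capitals.
read shared by miR-204-5p and miR-211-5p: uucccuuugucauccuGugccu
It differed from miR-211-5p by U17G and from miR-204-5p by A17G, at the only position where these miRNAs differ from each other. In I20M 50 of the 94 miR-211-5p reads were shared in this way, and in G15F 9 of 113 were. By the reads of miR-211-5p alone, 44 in I20M and 104 in G15F, I20M was not the highest library. In 4 libraries (G16M, I17M, I14F, and I16F) all miR-211-5p reads were shared. With reads of a single miRNA only, the male log2 fold change was −0.06. With the shared reads kept but I20M left out, it was −0.86.

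The relation of miR-204-5p and miR-211-5p over the 20 libraries rested on a few of them. Pearson's r of their log2 levels was 0.55 (n = 20, permutation p = 0.00975, adjusted over 2 relations 0.00975) and Spearman's rho was 0.38 (permutation p = 0.0959, adjusted 0.0959). Without the 2 libraries farthest from the median of miR-204-5p, I20M and G17F, r was 0.24 (n = 18, permutation p = 0.331), and the relation no longer held. With reads of a single miRNA only it was 0.37 (n = 20, permutation p = 0.109). As deviations from the group means r was 0.53 (n = 20, permutation p = 0.0140), and 0.29 without the 2 farthest, I20M and I17F (n = 18, permutation p = 0.244). The log2 ratio of miR-211-5p to miR-204-5p was −9.81 ± 0.81 in SI and −9.19 ± 1.55 in GH males, and −9.78 ± 1.42 in SI and −8.74 ± 0.99 in GH females (SD, n = 5 each, exact permutation tests, two-sided, p = 0.444 and 0.254).

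The miRNA most like miR-204-5p over the libraries was miR-1298, with a Pearson r of 0.94 between the deviations of the log2 levels from the group means over 20 libraries, and 0.84 without I20M. MiR-204-3p came next (0.86, and 0.67 without I20M), followed by miR-448-3p (0.81, and 0.48 without I20M). These r are descriptions of libraries that share depth and tissue. The genes of miR-1298 and miR-448 both lie on the X chromosome within Htr2c, the gene of the serotonin 2C receptor, which is strongly expressed by the choroid plexus epithelium. MiR-1298 was at 56030.1 normalized counts in I20M, against a median of 1709.6 and a highest value of 12978 (G17F) in the other 19 libraries. MiR-448-3p was at 16466 in I20M, against a median of 1368 and a highest value of 5931 (G17F). I20M and G17F were therefore the highest libraries for both, as they were for miR-204-5p.

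The annotation places 5 miRNA genes within Htr2c, and 7 miRNAs from them had reads, a list made after the values had been seen. In I20M miR-1912-3p was at 524, 17.4-fold above the median of the others (30.2), and miR-448-5p was at 793, 2.30-fold above the median (344). MiR-764-5p (141) and miR-764-3p (84.9) in I20M were exceeded by 1 and 2 other libraries, and miR-3552 (47.8) by 5. These miRNAs therefore did not share 1 size of excess. Of all 500 miRNAs, 6 had at least 500 normalized counts in I20M and more than 10 times the median of the other libraries, namely miR-1298, miR-1912-3p, miR-204-5p, miR-483-3p (783 against 56.6), miR-204-3p, and miR-448-3p, and these limits were also set after the values had been seen. The male fold change of miR-1298 was 2.33 ± 0.97 (edgeR, adjusted p = 0.143), and −1.07 without I20M (edgeR, adjusted p = 0.352).

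**Figure D4:**
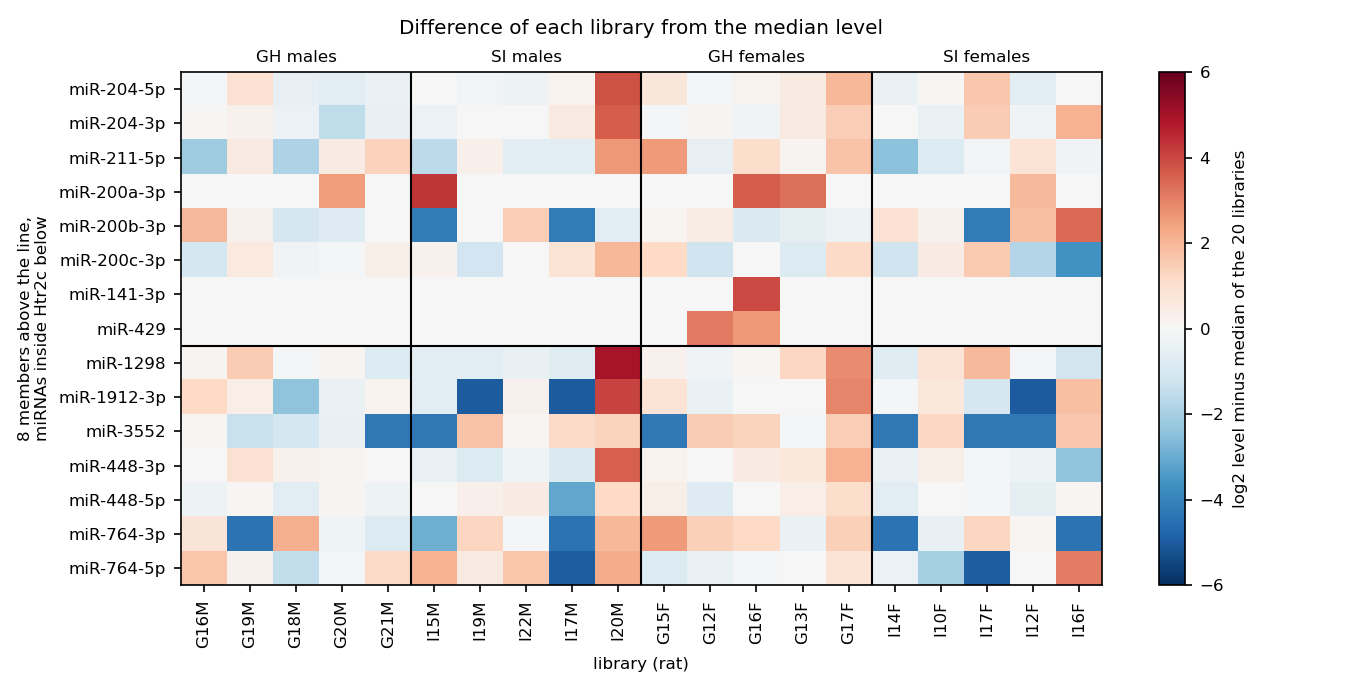
Log2(normalized count + 1) minus its median over the 20 libraries, for the 8 members (above the line) and the 7 miRNAs encoded within Htr2c (below), with libraries ordered by group. The column of rat I20M is high for miR-204-5p, miR-204-3p, miR-211-5p, miR-1298, miR-1912-3p, and miR-448-3p, and G17F and I17F are high for miR-204-5p and miR-1298.

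The summed levels of the other epithelial and of the ependymal miRNAs were also highest in this library. The 6 other epithelial miRNAs summed to 44416 in I20M, the highest of the 20 libraries and 2.07-fold above the median of the others (21416). Most of this was miR-375-3p at 42499, and miR-182 was at 1513 against at most 554 elsewhere. MiR-96-5p was also highest in I20M, at 8.78. For miR-183-5p I20M ranked 4th, at 174 against 564 in G16M, and it ranked 2nd for miR-203a-3p and 6th for miR-205. The sum spanned 11419–27404 among GH males, 14581–44416 among SI males, 16661–28448 among GH females, and 19632–29345 among SI females. The 6 miRNAs of ciliated ependyma, the cells that line the ventricles, summed to 16576 in I20M, 2.29-fold above the median of the others, and spanned 2919.9–7799.7 among GH males, 5441.5–16576 among SI males, 5518–16288 among GH females, and 3596–10342 among SI females. In I20M miR-34b-3p carried most of this sum (10176) and miR-449a-5p and miR-449c-5p were at 0. MiR-34c-5p (4860 in I20M) and miR-34c-3p (1521) were highest in G17F, at 8763 and 1845. For miR-34b-5p I20M ranked 11th.

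The sums of the blood and brain lists did not single out I20M. The 8 blood miRNAs summed to 17153 there, the fifth highest value, and spanned 9424–12259.7 among GH males, 13961–25509 among SI males, 9683–17467 among GH females, and 13052–32031 among SI females. The 8 miRNAs of brain tissue, such as miR-124-3p and miR-9a-5p, summed to 999164 in I20M, which ranked 12th, and spanned 849469–1336127 among GH males, 773762–1191116 among SI males, 812899–1059481 among GH females, and 593716–1355476 among SI females. Within the brain list, I20M ranked 19th of the 20 libraries for miR-124-3p, at 72832 against a median of 122929 in the others. For the other miRNAs of this list I20M ranked between 4th and 18th. The sum of the brain list was lowest and that of the blood list highest in I16F. Of the 26 tested miRNAs of the 4 lists, edgeR called 0 between SI and GH rats in males, where it called 4% of all 500, and 0 among females, where it called 0.4%. Unadjusted p-values under 0.05 by edgeR were found for 3 of the 26 in males, against 115 of all 500. Among females they were found for 4 of the 26, against 104 of all 500. DESeq2 called 3 of the 16 to which it gave an adjusted p in males (miR-34b-3p, miR-486, and miR-124-3p), against 19.8% of all, and 4 of 19 in females (miR-34c-5p, miR-486, miR-138-5p, and miR-338-3p), against 17.9%. The male log2 fold change of miR-34b-3p was 1.26 ± 0.38 (edgeR, adjusted p = 0.0598) and 1.28 with DESeq2 (adjusted p = 0.0172). The miRNAs named in these counts were chosen after their values were seen. Whether the punch of I20M held choroid plexus or other ventricular tissue was not tested.

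The miR-200 family was present at a trace level, and its members did not behave alike. MiR-200c-3p was the only one with reads in all 20 libraries, with 1074 reads in all. In I16F it had 2 reads, each with a mismatch, and 0.186% of all miR-200c-3p reads also matched miR-200b-3p. Its level in the GH males was 19.2 in G16M, 62.2 in G19M, 36.0 in G18M, 39.2 in G20M, and 53.0 in G21M. In the SI males it was 49.9 in I15M, 17.9 in I19M, 41.2 in I22M, 74.6 in I17M, and 167 in I20M. I20M was the highest library here as well, 4.05-fold above the median of the others (41.2), with I17F second at 126. The GH females had 95.2 (G15F), 17.7 (G12F), 41.2 (G16F), 22.6 (G13F), and 91.7 (G17F), and the SI females had 17.6 (I14F), 57.8 (I10F), 126 (I17F), 11.6 (I12F), and 2.46 (I16F). The groups overlapped in both sexes. The fold change of SI against GH was 0.74 ± 0.87 in males (edgeR, adjusted p = 0.724), 0.06 without I20M, and −0.31 ± 0.87 in females (edgeR, adjusted p = 0.855).

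Most miR-200c-3p reads were longer than the reference. The form with 2 more bases at the 3′ end, which held 51.0% of the 1074 reads and is shown for that reason with the added bases in capitals, was followed by the form with the first of them alone (25.9%), and the reference itself held 5.21%.
miR-200c-3p with 2 added bases: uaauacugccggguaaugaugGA

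MiR-200b-3p, a close relative of miR-200c-3p from the other cluster, had 531 reads in 17 libraries. The GH males had levels of 70.2 (G16M), 21.3 (G19M), 8.19 (G18M), 9.98 (G20M), and 17.1 (G21M), and the SI males had 0 (I15M), 17.9 (I19M), 51.2 (I22M), 0 (I17M), and 10.7 (I20M). The GH females had 18.9 (G15F), 24.4 (G12F), 9.28 (G16F), 11.3 (G13F), and 14.1 (G17F), and the SI females had 32.3 (I14F), 21.2 (I10F), 0 (I17F), 63.7 (I12F), and 194 (I16F). The highest level among males was in a GH rat, G16M, and among females in an SI rat, I16F, and the 3 libraries at 0 were all from SI rats. The SD of the log2 level was 2.58 in SI males and 1.16 in GH males, and 2.85 in SI females and 0.52 in GH females (n = 5 each, difference in spread not tested). The log2 fold change of SI against GH was −0.68 ± 1.34 in males (edgeR, adjusted p = 0.883) and 1.99 ± 1.37 in females (edgeR, adjusted p = 0.449).

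I20M, which was high for miR-204 and miR-200c-3p, was not high for miR-200b-3p. Its miR-200b-3p level of 10.7 lay below the median of the other libraries (17.9). The highest miR-200b-3p library was I16F, 11.3-fold above the median of the others (17.1), and the same library had the lowest miR-200c-3p level of all 20. That lowest level came from 2 reads, each with a mismatch. Conversely, the 3 libraries with no miR-200b-3p (I15M, I17M, and I17F) all had miR-200c-3p above the median of the libraries. Both miRNAs rest on few distinct sequences, at most 3 in a library for miR-200b-3p and 4 for miR-200c-3p, and 10 of the 17 libraries with miR-200b-3p held it as 1 sequence.

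**Figure D5:**
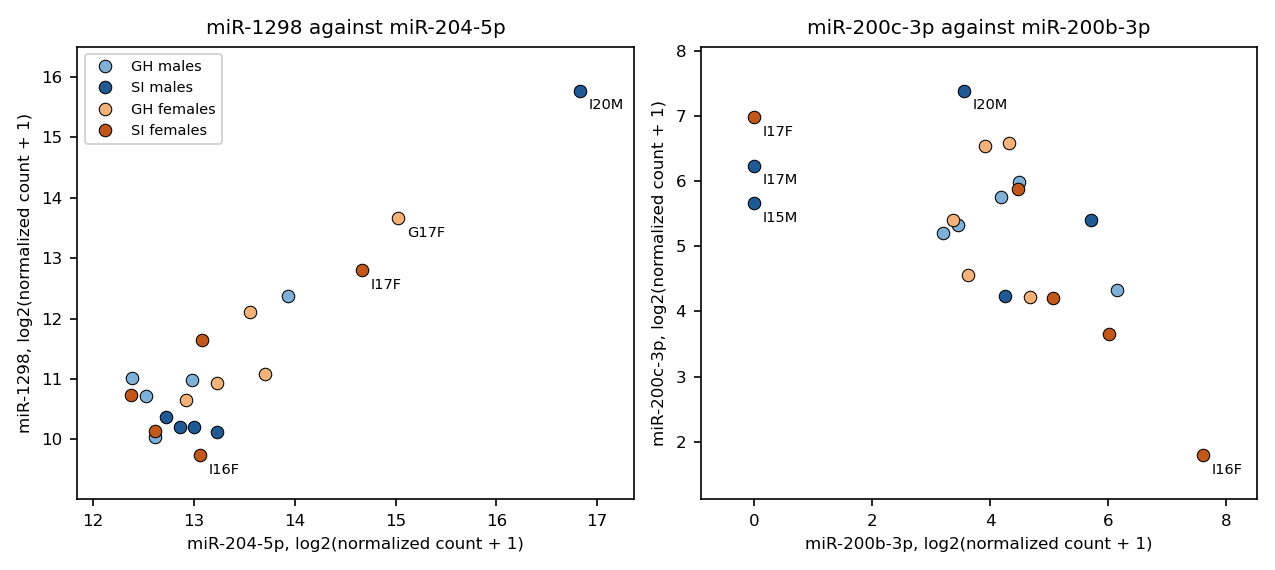
Left, log2(normalized count + 1) of miR-1298 against that of miR-204-5p, and right, of miR-200c-3p against miR-200b-3p, with 1 point for each of the 20 libraries coloured by group. The miR-1298 points climb with miR-204-5p up to G17F and I20M. In the right plot I16F lies at the low end of miR-200c-3p (2.46 normalized counts) and the high end of miR-200b-3p (194). The I16F level of miR-200c-3p rests on 2 reads.

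The remaining members of the family were found in a few libraries. MiR-200a-3p, encoded beside miR-200b, had 58 reads in 5 libraries, namely 31 in I15M, 11 in G16F, 7 in G13F, 6 in G20M, and 3 in I12F, each time as 1 sequence. MiR-141-3p, the neighbour of miR-200c, had 14 reads, all in G16F. MiR-429 had 7 reads in G12F and 5 in G16F. All 3 were thus at 0 in I20M and in I16F, and GH female G16F was the only library with reads of all 5 miR-200 members. Among the other arms of these hairpins, miR-200a-5p had 16 reads in I19M, and miR-200b-5p, miR-200c-5p, miR-141-5p, and miR-211-3p had none. MiR-200a-3p, miR-141-3p, and miR-429 did not pass the filter and were not tested with edgeR.

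Summed over its 5 members, the miR-200 family ranged from 35.8 (I19M) to 196 (I16F), and I20M had the second highest sum, 178. The log2 sum and the log2 level of miR-204-5p had a Pearson r of 0.59 and a Spearman rho of 0.56 over the 20 libraries, given as a description because a sum over chosen members carries no test. Without I20M and G17F r was 0.42. As deviations from the group means it was 0.64, and 0.51 without I20M and I17F. The miRNAs most like miR-200c-3p were miR-214-3p (r = 0.73 of deviations over 20 libraries), miR-152-3p (0.72), and miR-34c-5p (0.69), the last of which is a marker of ciliated cells. Those most like miR-200b-3p were miR-764-5p (0.72), miR-301a-3p (0.68), and miR-181a-1-3p (0.68). For miR-211-5p they were miR-299a-5p (0.61), miR-199a-3p (0.59), and miR-152-3p (0.57), and for miR-204-3p, after miR-204-5p, miR-155-5p (0.75) and miR-505-3p (0.73).

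Counted over the members, edgeR made no call for housing. In males 0 of the 5 tested members were called by edgeR, where 4% of the 500 miRNAs were called. An unadjusted p under 0.05 by edgeR was found for 2 members, both arms of miR-204, and for 115 of the 500. DESeq2 called 1 member, miR-204-3p, the only one to which it gave an adjusted p in males, where it called 19.8% of 303 miRNAs. The median log2 fold change by edgeR in males was 0.74 over the 5 members and −0.01 over all 500. By the sample labels, the member values depended on I20M. Without it they were −0.10 for miR-204-5p, 0.29 for miR-204-3p, −0.86 for miR-211-5p, −0.62 for miR-200b-3p, and 0.06 for miR-200c-3p. In females 0 members were called by edgeR or DESeq2, where edgeR called 0.4% of the 500. There 0 members and 104 of the 500 had an unadjusted p under 0.05 by edgeR. In females and in the average, DESeq2 gave an adjusted p to miR-204-3p and miR-200c-3p alone among the members, and it called 17.9% and 35.3% of 374 miRNAs. The female medians were −0.31 over the members and −0.13 over all. Averaged over the sexes, edgeR called 0 members and 17.6% of the 500, and DESeq2 called miR-204-3p. In that average 1 member and 161 of the 500 had an unadjusted p under 0.05 by edgeR.

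The sex comparisons made no call among these miRNAs either. For the interaction of housing and sex, edgeR called 0 members and 0.4% of the 500. It gave an unadjusted p under 0.05 to 1 member, miR-204-5p, and to 36 of the 500. DESeq2 called 0 of the 7 members to which it gave an adjusted p (all but miR-204-5p) and 1.02% of 586 miRNAs. Between GH females and GH males, edgeR called 0 members and 0% of the 500, with 0 members and 12 miRNAs at an unadjusted p under 0.05, and DESeq2 called 0 of the same 7 members and 5 of 586 miRNAs (0.853%). The log2 fold changes of GH females against GH males were 0.89 ± 0.67 for miR-204-5p, 0.80 ± 0.67 for miR-204-3p, 1.16 ± 1.12 for miR-211-5p, −0.70 ± 1.34 for miR-200b-3p, and 0.36 ± 0.87 for miR-200c-3p (SE, edgeR, adjusted p = 0.996 for each). Because GH rats serve in both contrasts, the housing and sex comparisons share libraries.

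The members were also ranked among all miRNAs by how far the highest library stood above the others. The ratio of the highest library to the median of the others had a median of 2.24 over the 460 miRNAs for which it could be computed. MiR-204-5p ranked 10th by this ratio, miR-204-3p 13th, miR-200b-3p 18th, miR-211-5p 32nd, and miR-200c-3p 84th. Of the 500 miRNAs, 72 were more than 1 log2 unit above the median of the others in I20M, 31 more than 2, and 21 more than 3. The 5 with the largest log2 excess there were miR-100-3p (92.7 normalized counts), miR-3593-3p (56.6), miR-1298, miR-144-3p (26.3), and miR-879-3p (26.3), of which all but miR-1298 had a median of 0 in the other libraries. In I16F the 5 largest were miR-143-5p, miR-3541, miR-3562, miR-200b-3p, and miR-6318.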

How the data were processed

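Small RNA libraries were prepared from 215 ng of total RNA with 22 PCR cycles. The authors removed adapters, collapsed reads of the same sequence, and mapped them with seqbuster to the rat precursors in miRBase. The deposited values are raw counts of each distinct sequence in a library. Here the counts were summed per miRNA, with a read of several miRNAs counted for each. Testing used miRNAs that reached 10 counts in 5 or more of the 20 libraries and edgeR 4.0.16 (R 4.3.3, TMM factors, quasi-likelihood test, 1 model of 4 groups). The script was tested on simulated data. DESeq2 1.42.0 was an alternative. Log2 levels used a pseudocount of 1. Single values used exact permutation tests, and correlations 100000 permutations, in Python 3.11.15 (scipy 1.17.1). The members and lists were chosen with earlier results of these data known. Besides the members, the text names the 3 miRNAs most like each tested member. It also names the 5 with the largest excess in the highest library of each family, and miRNAs of the marker lists. Animal numbers shared between housing groups (2 pairs of males, 3 of females) are not described as pairs, and correlations of the paired deviations lay between −0.304 and 0.0896. Of 190 pairs of libraries none was a copy. Reads carry no molecular identifiers here, so depth limits cover counting error only.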

Additional observations from a re-analysis of the deposited data

Results flagged for a closer look

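Among 36 groups of 5 rats examined for a sample far from the others (5 miRNA levels and 4 ratios or shares, in 4 groups), 2 held one, and chance gives about 1 in 20. For miR-204-5p in SI males, the gap between I20M (log2 level 16.83) and the next rat (13.23) was 0.877 of the range of the group. For miR-204-3p in the same group, the gap between I20M (11.40) and the next rat (8.26) was 0.782 of the range.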

How the results depend on the processing

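DESeq2 called 60 miRNAs in males, 67 in females, 6 for the interaction, and 5 between the sexes in GH rats. It called 1 member (miR-204-3p) in males and 1 averaged over the sexes. With at least 10 counts in every library, 40 miRNAs were called in males and 40 in females. Fitting only the groups compared gave 89 in males, with 1 member, and 0 in females. With the I17 libraries exchanged, 11 were called in males, 5 in females, and 0 for the interaction, and with RLE factors the interaction had 0. Among rats with shared numbers, the replicate block gave 2 calls in males (1 member, miR-204-3p) and 0 in females, against 1 and 0 without the block. The shared numbers are not described as pairs, and whether they mark related rats is not known. With reads of a single miRNA and with reads without a mismatch, the male fold change of miR-211-5p was −0.060 and −0.087, and r of miR-204-5p with miR-211-5p was 0.37 and 0.35. The female difference in 5′ shifted reads was 0.0593 percentage points without mismatched reads. The causes were not tested.

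Leaving out 1 library at a time gave 7 (without I15M) to 73 (without I16F) calls in males, 1 to 63 (without I10F) in females, 58 (without G16F or G17F) to 117 averaged over the sexes, and 0 to 2 for the interaction, with 0 to 1 members in males (1 without I16F) and in the average (1 without I10F), both times miR-204-3p. Fold changes changed sign for miR-204-5p in males (−0.10 to 2.21, without I20M), females (−1.08 to 0.033, without G17F), and the average (−0.28 to 0.94, without I20M). The same held for miR-204-3p in females (−0.020 to 0.83, without I16F) and the interaction (−2.09 to 0.16, without I20M), miR-211-5p in males (−0.86 to 1.12, without I20M), miR-200b-3p in males (−1.81 to 0.16) and GH females against GH males (−0.92 to 0.14, both without G16M), and miR-200c-3p in females (−1.25 to 0.017, without I16F) and the average (−0.26 to 0.38, without I20M or I17F). The difference in 5′ shifted reads ranged from −0.226 to 0.0950 percentage points in males (sign changed without G18M or I22M) and −0.324 to 0.116 in females (without I16F), and r of miR-204-5p with miR-211-5p from 0.39 (without I20M) to 0.61. I20M stood 13.3-fold to 15.7-fold above the median for miR-204-5p under the 4 other scalings and read selections.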

Other observations

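The averaged contrast of miR-448-3p, encoded within Htr2c, changed with the same library. Its log2 fold change of SI against GH over both sexes was −0.00 ± 0.48 with all 20 libraries (edgeR, adjusted p = 0.996) and −1.08 ± 0.30 without rat I20M (edgeR, adjusted p = 0.0193). This miRNA was singled out after its values had been seen.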
